A study of Mus musculus with 12 samples.

Results

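Neurotrophins and the proteins that bind, sort or follow them were read here as mRNA in the cerebral cortex of lupus-prone mice, through 6 genes of the 29608 gene names on the array. The genes were Bdnf and Ntf3 (the ligands BDNF and NT-3), Ntrk2 and Ntrk3 (their receptors TrkB and TrkC), Sort1 (the sorting receptor sortilin) and Vgf (a secreted neuropeptide precursor induced by neurotrophins). Every non-control probe named for one of these genes was taken, which gave 13 of 39429 probes, and all 13 passed the filter on dim and marked spots. Each of 3 groups had 4 mice, all adult females of about 12 weeks killed in diestrus, and the question was how lupus and the receptor Fn14 go with gene expression in the brain. MRL/lpr mice carry the lpr mutation of the death receptor gene Fas on the MRL background and develop a systemic lupus-like disease with behavioural change. Fn14ko mice (strain label Fn14koMRL) also carry lpr and lack Fn14, the receptor of the cytokine TWEAK encoded by Tnfrsf12a, and were littermates of the MRL/lpr mice at backcross generation 8. MRL/+ mice (strain label MRL/MpJ) have the same background with intact Fas and Fn14 and were purchased, whereas both lpr groups were bred elsewhere, so source and group cannot be told apart for MRL/+. Whole cortex was used, and in such tissue fewer cells of a type and less RNA per cell cannot be told apart.

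BDNF and NT-3 are made as precursors, cut by proprotein convertases and released, BDNF in part in response to neuronal activity. Each binds its Trk receptor tyrosine kinase, BDNF mainly TrkB and NT-3 mainly TrkC, which then recruits adaptors that lead to the Ras, PI3K and phospholipase C routes. Both receptor genes also yield truncated forms that keep the outer domain and lack the kinase; in the adult brain truncated TrkB is abundant in astrocytes. Sortilin carries proneurotrophins inside the cell and, together with the p75 receptor Ngfr, binds them at the surface. In adult forebrain NT-3 mRNA is known to be concentrated in the hippocampal dentate gyrus, and BDNF mRNA is found in cortical and hippocampal excitatory neurons.

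The array carries several probes for Ntrk2, Ntrk3 and Sort1, and these probes read different transcripts, so the sequences that tell the forms apart are shown first. They were taken from the deposited array files, with mm9 positions, and each is a 60-base probe in the sense of the transcript. For Ntrk3 the capitals in the second kinase probe mark the codons of the metal-binding motif of the kinase activation loop, which truncated TrkC lacks, and the capitals in the truncated-form probe mark the stop codon that ends the truncated protein. The last probe is given because its genomic ends lie 2049 bases apart, so it spans an exon junction of Sort1 transcript variant 2.
Ntrk3 kinase form (second kinase probe), chr7:85392044-85392103, minus strand: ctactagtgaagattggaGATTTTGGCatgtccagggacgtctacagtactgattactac
Ntrk3 kinase form (first kinase probe), chr7:85337455-85337514, minus strand: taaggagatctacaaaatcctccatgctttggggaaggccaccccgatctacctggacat
Ntrk3 truncated form (second truncated probe), chr7:85447515-85447574, minus strand: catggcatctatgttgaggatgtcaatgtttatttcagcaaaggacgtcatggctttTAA
Ntrk2 both forms, chr13:58979563-58979622, plus strand: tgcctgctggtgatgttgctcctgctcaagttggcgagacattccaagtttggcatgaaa
Sort1 variant 2, chr3:108157150-108159198, plus strand: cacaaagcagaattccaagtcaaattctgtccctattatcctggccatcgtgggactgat

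The other probes lie at chr2:109566961-109567020 on the plus strand for Bdnf, chr6:126051431-126051490 on the minus strand for Ntf3 and chr5:137509153-137509212 on the plus strand for Vgf. Ntrk2 has a probe of the full-length kinase form at chr13:59230936-59230995, printed as 10 spots of which 8 were kept, and a probe of the truncated form at chr13:59038046-59038105, both on the plus strand. Ntrk3 has a further probe of the truncated form (the first truncated probe) at chr7:85445908-85445967 on the minus strand. Sort1 has a probe assigned to variant 1 at chr3:108158404-108158463, which lies between the 2 genomic ends of the variant 2 probe, and a probe assigned to variants 1 and 2 at chr3:108164349-108164408, both on the plus strand. No mm9 gene annotation was used here, so exon and untranslated region are given only where the probe's own sequence shows them.

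Signals are fluorescence after background correction, in units of the median retained spot of each mouse's channel, and folds are differences of log2 signal. Probes of different sequence bind with different strength, so signals are compared between groups within a probe and not between probes. Each array held 2 mice of 1 group, replicates 1 and 3 in the dye Cy3 and replicates 2 and 4 in Cy5, and each slide and scan held 1 group, so slide, scan and group cannot be told apart. The Cy5 channels of MRL/+ (replicates 2 and 4) were unlike the rest: the scanner software called 35.0% and 21.2% of spots well above background in them, and 56.6% to 70.03% in each of the other 10 channels. The dark corners of the array read 6.88 and 6.66 times the local background there, a ratio that was 1.26 to 2.74 in the other channels. The labels separate the mice, so n counts mice. As a check of the labels, Tnfrsf12a signal was 0.604 to 0.777 in Fn14ko, below 1.38 to 1.90 in MRL/lpr (limma adjusted p = 0.00351) and below 0.943 to 1.28 in MRL/+ (limma adjusted p = 0.108). Fas signal did not pass the test between any groups.

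The clearest result among the 6 genes was low Ntf3 in MRL/lpr cortex. Ntf3 was 4.59-fold lower in MRL/lpr than in MRL/+ and 3.23-fold lower than in Fn14ko, which differ from MRL/lpr in Fn14. The full-length Ntrk2 probe was higher in MRL/lpr than in MRL/+, and the Sort1 variant 2 probe was lower. The remaining 10 probes, those of Bdnf, Vgf and all of Ntrk3 included, did not pass the test in any comparison. In MRL/lpr against MRL/+, 3 of 13 probes passed (1 higher and 2 lower, or 0 higher and 3 lower when scaled to the 75th percentile of spots), where 15% of the 22419 probes tested passed. Against Fn14ko, 1 of 13 passed in MRL/lpr, where 4.03% of all probes passed. In Fn14ko against MRL/+ no member passed, where 1.09% of all probes passed by limma. By the methods' t-test 4 members had an unadjusted p under 0.05 in each of these comparisons, as had 25%, 21.2% and 15.7% of all probes in the same order, and after Benjamini-Hochberg adjustment 2, 0 and 0 members passed, with 4.08%, 1.01% and 0% of all probes. Groups of 4 mice that did not overlap were found for 24.8%, 19.5% and 14% of all probes in these comparisons, in the same order. The 3 comparisons share their mice in pairs, so the values of 1 gene in them are not independent.

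**Figure D1:**
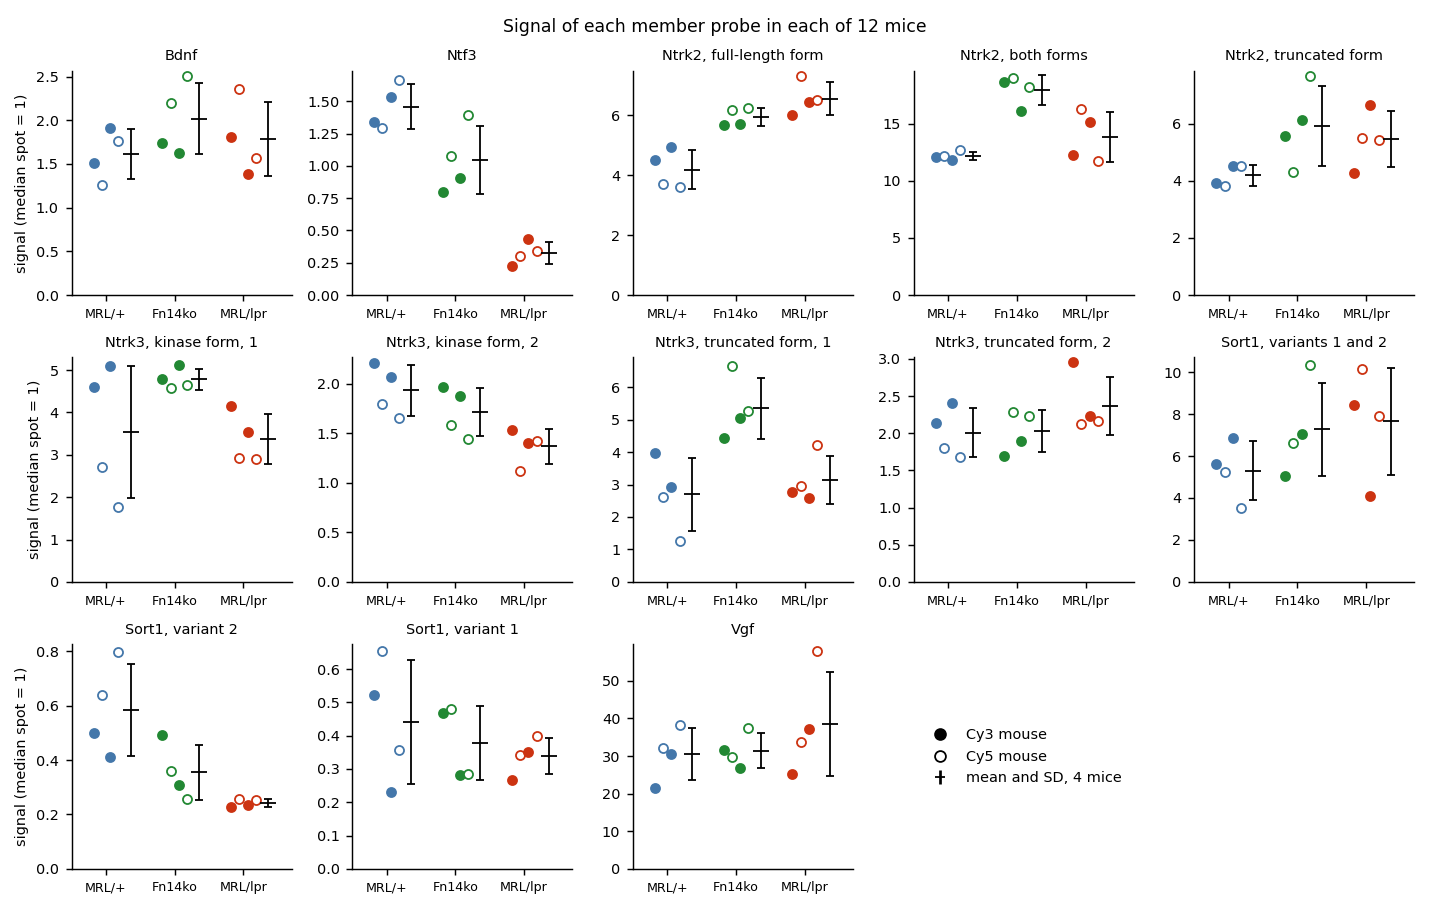
Signal of each mouse at the 13 probes, in units of the channel's median retained spot, on axes that differ between panels; filled points are Cy3 mice, open points Cy5 mice, and bars are the mean and SD of 4 mice. The 4 MRL/lpr mice lie at 0.226 to 0.431 for Ntf3, below all Fn14ko (0.795 to 1.40) and MRL/+ (1.30 to 1.67) mice.

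The ligands were taken first. Ntf3 signal in MRL/lpr replicates 1 to 4 was 0.226, 0.303, 0.431 and 0.339. In Fn14ko it was 0.795, 1.08, 0.903 and 1.40, and in MRL/+ it was 1.34, 1.30, 1.54 and 1.67. Every MRL/lpr mouse was thus below every mouse of the other groups, whereas the highest Fn14ko mouse lay within the MRL/+ values. The means were 0.325 ± 0.0853 (SD, n = 4) in MRL/lpr, 1.04 ± 0.262 (SD, n = 4) in Fn14ko and 1.46 ± 0.173 (SD, n = 4) in MRL/+. MRL/lpr differed from MRL/+ by -2.20 on the log2 scale (SE 0.25, limma adjusted p = 0.000382) and from Fn14ko by -1.69 (SE 0.25, limma adjusted p = 0.00213), and the exact permutation test gave 0.0286 for both, the smallest p that 70 divisions of 8 mice allow. Fn14ko differed from MRL/+ by -0.51 (95% interval -1.04 to 0.02, limma adjusted p = 0.229). Leaving out any single mouse kept both MRL/lpr differences past the threshold, at -2.39 to -2.08 against MRL/+ and -1.88 to -1.56 against Fn14ko, and without the Cy5 mice of MRL/+ the first was -2.32 (limma adjusted p = 0.00356). Both lost their call when dim spots were kept on the array (-1.60, limma adjusted p = 0.147, and -1.82, limma adjusted p = 0.215), a setting in which 16 and 38 of 38661 probes passed.

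Because NT-3 is best known from the hippocampus, hippocampal marker genes were read beside it in these cortex samples. Of 4 such genes 2 could be measured, namely Lct and Cnih3, whereas Prox1 and Dsp did not pass the dim filter. Their summed signal was 1.47 to 2.161 in MRL/lpr, 3.39 to 5.59 in Fn14ko and 2.163 to 5.70 in MRL/+, so that it too was lowest in all 4 MRL/lpr mice, though the lowest MRL/+ mouse lay just above them. The sum followed Lct, the lactase gene, at 0.482 to 0.558 in MRL/lpr, 2.22 to 3.97 in Fn14ko and 0.745 to 3.62 in MRL/+. Lct fell by 2.01 on the log2 scale in MRL/lpr against MRL/+ (limma adjusted p = 0.0237). Against Fn14ko it fell by 2.52 (limma adjusted p = 0.0157), a call lost without replicate 2 of Fn14ko (-2.28, limma adjusted p = 0.0750). Both calls were lost with dim spots kept and by the methods' t-test after adjustment, and that against MRL/+ also by its unadjusted p. Cnih3, an auxiliary protein of AMPA receptors, differed by -0.51 and -0.20 and passed in neither comparison. Neurod6, a transcription factor of excitatory neurons of cortex and hippocampus, differed by -1.70 and -2.11 and passed in both, while the summed signal of 5 excitatory neuron markers overlapped between groups (33.5 to 39.3 in MRL/lpr, 31.8 to 41.2 in Fn14ko, 32.5 to 52.7 in MRL/+). The part of hippocampal tissue in the Ntf3 values was not tested.

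**Figure D2:**
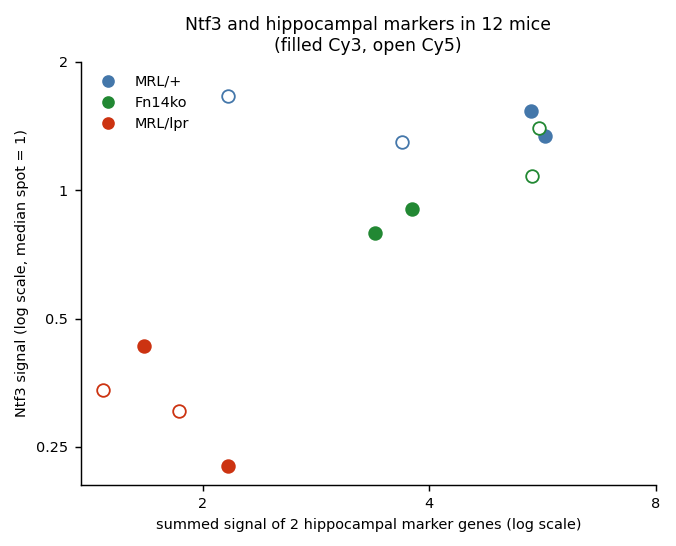
Ntf3 signal of each of the 12 mice against the summed signal of Lct and Cnih3, both in units of the median retained spot on log axes, with groups by colour. The 4 MRL/lpr mice are lowest on the vertical axis, 1 MRL/+ mouse is nearly level with the highest of them on the horizontal axis, and the plot is a description of 12 mice in 3 groups.

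Over the 12 mice, the probes whose log2 signal ran most like that of Ntf3 were Lor (Pearson r = 0.981) and Foxj1 (r = 0.978). Lor encodes loricrin, a protein of the cornified skin envelope, and Foxj1 a transcription factor of ciliated cells such as ependyma. Their mean signals in MRL/lpr, Fn14ko and MRL/+ were 1.16, 3.13 and 3.63 for Lor and 0.512, 1.28 and 1.70 for Foxj1. Points of 1 group share a slide and points of 1 array a hybridization, so the likeness is given as a description.

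Bdnf did not differ beyond the spread between mice. Its signal was 1.81, 2.36, 1.39 and 1.57 in MRL/lpr, 1.74, 2.20, 1.63 and 2.51 in Fn14ko, and 1.51, 1.26, 1.91 and 1.77 in MRL/+. The 3 groups overlapped, and the difference between MRL/lpr and MRL/+ was 0.13 on the log2 scale (95% interval -0.37 to 0.64, limma adjusted p = 0.697). Against Fn14ko it was -0.19 (95% interval -0.69 to 0.32), and between Fn14ko and MRL/+ it was 0.32 (95% interval -0.18 to 0.83). Bdnf is itself induced by neuronal activity, and of 15 other activity-regulated genes 14 were measured. Of these, 7 rose and 1 fell in MRL/lpr against MRL/+, where 15% of all probes passed. The median difference was 1.07, where that of all probes was -0.15. Summed signal of the 14 genes was 140 to 198 in MRL/lpr and 60.6 to 106 in Fn14ko. In MRL/+ it split by array, at 38.3 and 35.3 in replicates 1 and 2 and 87.7 and 88.6 in replicates 3 and 4. Of the calls in this comparison, only those of Egr4 and Homer1 were followed through the alternatives. Egr4, a zinc finger transcription factor, rose by 2.14 (limma adjusted p = 0.00134) and Homer1, a postsynaptic scaffold, by 1.04 (limma adjusted p = 0.00190). The study's paper lists Homer1 as lower in MRL/lpr than in MRL/+, and here only its brightest retained probe was read. Ier2, an immediate early gene, fell by 1.22 (limma adjusted p = 0.0182). Its probe was dim, with means of 0.239 in MRL/lpr and 0.550 in MRL/+, and was well above background in 3 of 4 and 2 of 4 of these mice. Against Fn14ko 2 of the 14 rose, Homer1 by 0.97 and Arc by 1.38, where 4.03% of all probes passed. In Fn14ko against MRL/+ Egr4 rose by 1.53, where 1.09% of all probes passed. These calls, and those of Egr4 and Homer1 in MRL/lpr against MRL/+, were lost with dim spots kept and by the methods' t-test after adjustment. The call of Arc was lost without 6 of the 8 mice in turn (1.25 to 1.45), all but replicate 3 of either group, and that of Egr4 in Fn14ko without 5 of 8 (1.32 to 1.57), replicates 2, 3 and 4 of Fn14ko and 2 and 4 of MRL/+. Most alike Bdnf over the 12 mice were Gins4 (r = 0.909), a DNA replication factor, and Uck2 (r = 0.908), a uridine-cytidine kinase.

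Among the receptors, Ntrk2 was higher in MRL/lpr than in MRL/+ at the probe of the kinase form. That probe gave 6.01, 7.30, 6.42 and 6.49 in MRL/lpr, 5.68, 6.17, 5.70 and 6.24 in Fn14ko, and 4.50, 3.69, 4.94 and 3.62 in MRL/+. Every mouse of either lpr group was above every MRL/+ mouse, and the lpr groups overlapped. The signal rose by 0.66 on the log2 scale in MRL/lpr (SE 0.20, 1.58-fold, limma adjusted p = 0.0401), while Fn14ko against MRL/+ gave 0.52 (95% interval 0.10 to 0.94, limma adjusted p = 0.162). In MRL/+ all 8 kept spots of the probe were well above background in 3 of 4 mice. The call held in 2 of the 8 fits that left out 1 mouse (0.70 without replicate 1 and 0.77 without replicate 3 of MRL/+) and was lost without replicates 2 or 4 of MRL/+ or any of the MRL/lpr mice (0.55 to 0.72). It was also lost without both Cy5 mice of MRL/+ (0.40, limma adjusted p = 0.290) and in the processed signal of the scanner software (0.21, limma adjusted p = 0.332).

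The other Ntrk2 probes followed a different order. The probe shared by the kinase and truncated forms gave 12.3, 16.2, 15.2 and 11.8 in MRL/lpr, 18.6, 19.0, 16.1 and 18.2 in Fn14ko, and 12.07, 12.12, 11.83 and 12.67 in MRL/+. Here Fn14ko stood above all MRL/+ mice, by 0.56 on the log2 scale (95% interval 0.14 to 0.97, limma adjusted p = 0.140), and MRL/lpr overlapped both. In the processed signal this Fn14ko difference was -0.07. The truncated-form probe ran from 3.83 to 4.53 in MRL/+, 4.30 to 7.68 in Fn14ko and 4.27 to 6.68 in MRL/lpr, with overlap throughout and a difference of 0.37 between MRL/lpr and MRL/+ (95% interval -0.14 to 0.87). Summed signal of 5 astrocyte markers, cells in which truncated TrkB is abundant, overlapped too, at 20.9 to 26.5 in MRL/lpr, 24.7 to 27.5 in Fn14ko and 19.7 to 30.6 in MRL/+. Most alike the shared probe over the 12 mice were Npc2 (r = 0.902), a lysosomal cholesterol carrier, and Glce (r = 0.901), an epimerase of heparan sulfate synthesis.

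**Figure D3:**
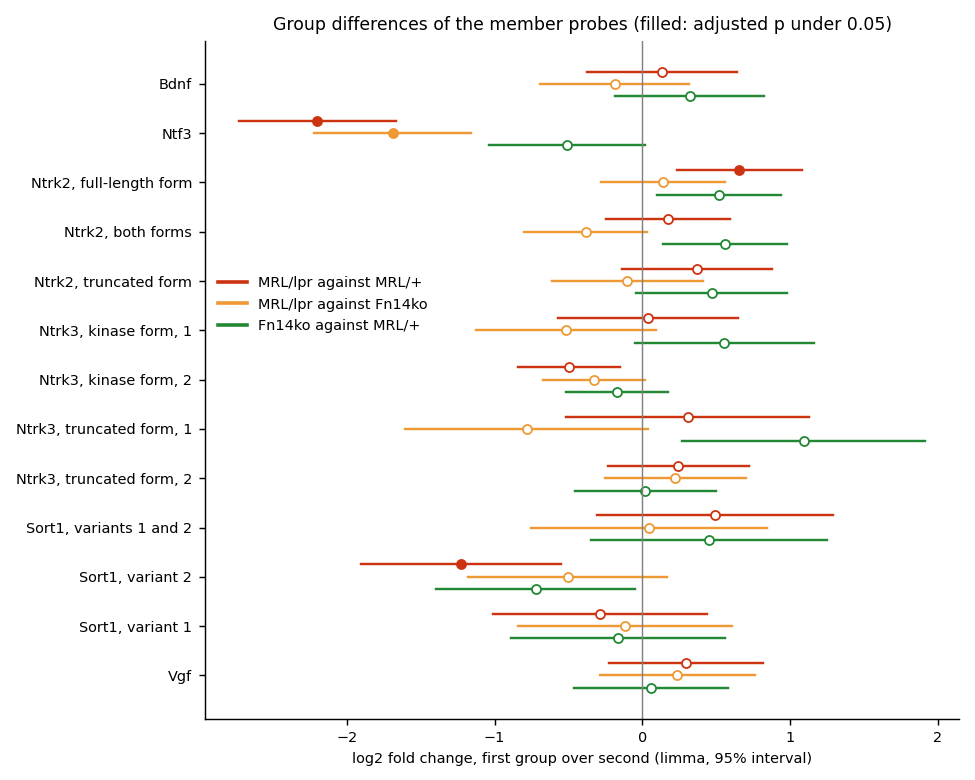
Difference of log2 signal at each of the 13 probes in the 3 comparisons, with 95% intervals from limma; filled points have an adjusted p under 0.05. Of the 13 probes Ntf3 alone is filled in MRL/lpr against Fn14ko, and no point is filled in Fn14ko against MRL/+.

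Ntrk3 had 4 probes, and none passed the test in any comparison. The second kinase probe came nearest: it gave 1.54, 1.12, 1.40 and 1.42 in MRL/lpr, 1.97, 1.58, 1.87 and 1.45 in Fn14ko, and 2.21, 1.79, 2.07 and 1.66 in MRL/+. All MRL/lpr mice were below all MRL/+ mice, with a difference of -0.50 on the log2 scale (95% interval -0.84 to -0.15, limma adjusted p = 0.0512), and Fn14ko lay across both. Scaled to the 75th percentile of spots the difference was -0.73 and passed (limma adjusted p = 0.0209). It turned to 0.10 when dim spots were retained. The first kinase probe gave 4.15, 2.93, 3.53 and 2.90 in MRL/lpr, 4.80, 4.57, 5.13 and 4.65 in Fn14ko, and 4.59, 2.71, 5.09 and 1.77 in MRL/+. MRL/lpr was thus below Fn14ko in all mice (-0.52, limma adjusted p = 0.376), whereas the MRL/+ mice ranged widely, the Cy5 mice being the lowest. The difference from MRL/+ at this probe was 0.04 and turned to -0.76 in the processed signal, where it passed (limma adjusted p = 0.00554).

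The truncated form of Ntrk3 did not move alike at its probes either. The first truncated probe gave 2.78, 2.96, 2.59 and 4.21 in MRL/lpr, 4.44, 6.64, 5.04 and 5.28 in Fn14ko, and 3.98, 2.60, 2.94 and 1.25 in MRL/+. Fn14ko was above every mouse of both other groups, by 1.09 on the log2 scale against MRL/+ (95% interval 0.27 to 1.91, limma adjusted p = 0.142), and MRL/lpr was below Fn14ko by -0.78 (95% interval -1.60 to 0.04, limma adjusted p = 0.314). The lowest MRL/+ value, 1.25 in replicate 4, belonged to the channel with the fewest spots above background. The second truncated probe gave 2.95, 2.13, 2.23 and 2.17 in MRL/lpr, 1.69, 2.29, 1.90 and 2.24 in Fn14ko, and 2.13, 1.80, 2.41 and 1.68 in MRL/+, and its groups overlapped in every comparison. Most alike the first kinase probe, the brighter of the pair, were Epha5 (r = 0.981), an ephrin receptor, and Ncoa1 (r = 0.981), a nuclear receptor coactivator.

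Sort1 differed at the probe of variant 2. It gave 0.226, 0.258, 0.233 and 0.254 in MRL/lpr, 0.492, 0.359, 0.308 and 0.258 in Fn14ko, and 0.498, 0.638, 0.410 and 0.797 in MRL/+. The MRL/lpr mice were the lowest, just under the lowest Fn14ko mouse, and well under all MRL/+ mice. Against MRL/+ the signal fell by 1.23 on the log2 scale (SE 0.31, 2.34-fold lower, limma adjusted p = 0.0215), and against Fn14ko the difference was -0.51 (95% interval -1.18 to 0.17, limma adjusted p = 0.449). The probe was well above background in 2 of 4 MRL/+ mice, and the call was lost without replicate 4 of MRL/+ (-1.02, limma adjusted p = 0.128), without both Cy5 mice of MRL/+ (-0.85, limma adjusted p = 0.199) and in the processed signal (-0.22, limma adjusted p = 0.749).

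The other Sort1 probes overlapped between all groups. The probe assigned to both variants ran from 4.08 to 10.2 in MRL/lpr, 5.06 to 10.4 in Fn14ko and 3.51 to 6.88 in MRL/+, with a difference of 0.49 between MRL/lpr and MRL/+ (95% interval -0.31 to 1.29). The variant 1 probe ran from 0.267 to 0.399, 0.281 to 0.479 and 0.230 to 0.654 in the same order, with a difference of -0.28 (95% interval -1.01 to 0.44). Most alike the probe of both variants were Extl2 (r = 0.921), a glycosyltransferase, and Rpl34 (r = 0.911), a ribosomal protein.

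Vgf, the neurotrophin-induced peptide precursor, did not differ beyond the spread between mice. Its signal was 25.3, 33.7, 37.2 and 57.9 in MRL/lpr, 31.7, 29.8, 26.8 and 37.6 in Fn14ko, and 21.4, 32.2, 30.7 and 38.2 in MRL/+. The highest mouse was replicate 4 of MRL/lpr, and the groups overlapped in every comparison. MRL/lpr differed from MRL/+ by 0.29 on the log2 scale (95% interval -0.23 to 0.82) and from Fn14ko by 0.24 (95% interval -0.29 to 0.76). Most alike Vgf were Rpl10 (r = 0.870), a ribosomal protein, and Morn4 (r = 0.867), a MORN repeat protein.

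Probes of 1 gene were then set against each other within each mouse, as a difference of log2 signal that the scaling of the channel does not touch. The background of the channel still enters this difference, so the limit of the MRL/+ Cy5 channels holds here too. Of 12 such pairs, 5 did not overlap between MRL/lpr and MRL/+, 3 between MRL/lpr and Fn14ko and 2 between Fn14ko and MRL/+. Over 6320 pairs of probes of 1 gene on the array these shares were 23.5%, 15% and 16.5%. Each of the non-overlapping pairs had an exact permutation p of 0.0286, the smallest possible with 4 mice against 4, with no adjustment for the pairs read.

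For Ntrk2, the kinase probe minus the shared probe was -1.03, -1.15, -1.24 and -0.86 in MRL/lpr, -1.71, -1.62, -1.50 and -1.54 in Fn14ko, and -1.42, -1.72, -1.26 and -1.81 in MRL/+. The kinase probe was thus higher relative to the shared probe in MRL/lpr, by 0.48 against MRL/+ and by 0.52 against Fn14ko, and the latter groups overlapped. The MRL/+ mice furthest from MRL/lpr were the Cy5 mice (-1.72 and -1.81). Among Cy3 mice, MRL/+ gave -1.42 and -1.26 and MRL/lpr -1.03 and -1.24. For Ntrk3, the second truncated probe minus the second kinase probe was 0.94, 0.93, 0.67 and 0.61 in MRL/lpr, -0.22, 0.53, 0.02 and 0.63 in Fn14ko, and -0.05, 0.00, 0.22 and 0.02 in MRL/+. This difference was higher in MRL/lpr than in MRL/+, by 0.74, with Fn14ko spread across both, and that of the first truncated and second kinase probes was higher by 0.81. Against the first kinase probe MRL/lpr and MRL/+ overlapped, with differences of 0.21 for the second truncated probe and 0.27 for the first. Between these 2 groups the relation of the forms thus differed with the kinase probe read. Compared with Fn14ko, the second truncated minus the first kinase probe was higher in MRL/lpr by 0.74, without overlap. The first truncated minus the first kinase probe overlapped there (-0.27). The probes of the truncated form also moved against each other: the first minus the second was 1.24 to 1.54 in Fn14ko, -0.43 to 0.90 in MRL/+ and -0.09 to 0.96 in MRL/lpr. That difference was higher in Fn14ko by 1.07 than in MRL/+ and lower in MRL/lpr by -1.004 than in Fn14ko, although both probes are assigned to the truncated transcript. For Sort1, the variant 2 probe minus the probe of both variants was -5.22, -5.30, -4.13 and -4.96 in MRL/lpr and -3.49, -3.03, -4.07 and -2.14 in MRL/+, a difference of -1.72, with Fn14ko at -5.33 to -3.36. Here too the Cy5 mice of MRL/+ (-3.03 and -2.14) lay furthest from MRL/lpr. Among Cy3 mice, MRL/+ gave -3.49 and -4.07 and MRL/lpr -5.22 and -4.13. The variant 2 probe minus the variant 1 probe was lower in MRL/lpr than in MRL/+ as well, by -0.94.

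**Figure D4:**
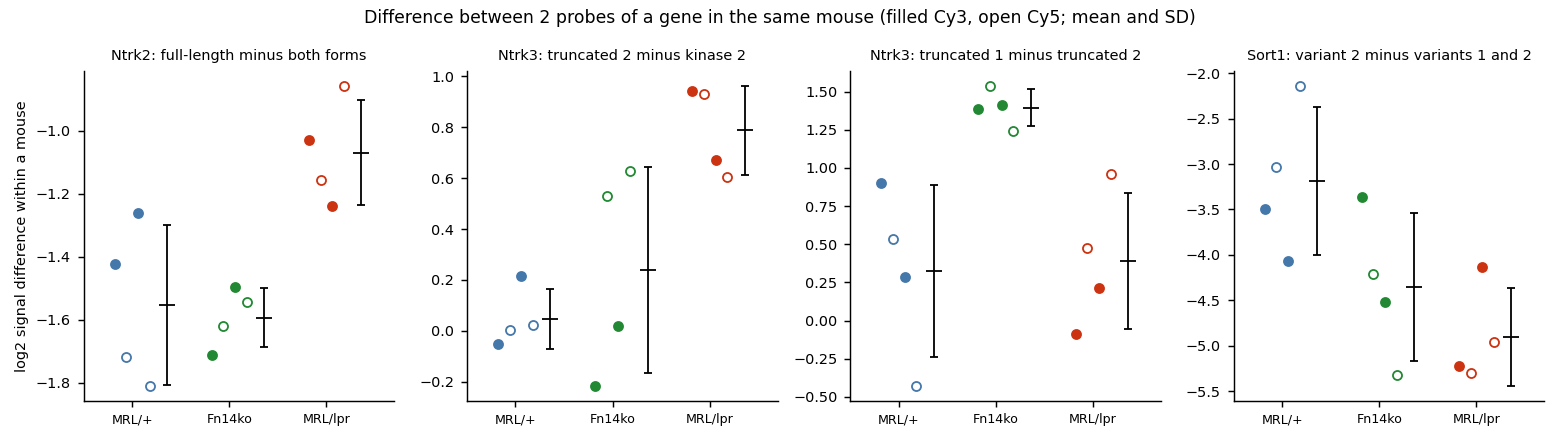
Difference of log2 signal between 2 probes of 1 gene within each mouse, for Ntrk2 (kinase minus shared), Ntrk3 (second truncated minus second kinase, and first minus second truncated) and Sort1 (variant 2 minus both variants); bars are the mean and SD of 4 mice. MRL/lpr lies above MRL/+ in the Ntrk2 panel by 0.48 and below it in the Sort1 panel by -1.72. In both panels the Cy5 mice of MRL/+ (open points) lie furthest from MRL/lpr.

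The genes that act with the 6 were read from a list of 48 further genes of neurotrophin signaling, of which 43 passed the filter, each at its brightest probe. In MRL/lpr against MRL/+ 2 of 43 rose and 4 fell, with a median log2 difference of 0.07 where that of all probes was -0.15; 15% of all probes passed there, so the share of the list was near the background. Against Fn14ko, 1 rose and 2 fell in MRL/lpr, where 4.03% of all probes passed, with a median of -0.12 against -0.08 for all probes. None passed in Fn14ko against MRL/+, where the median was 0.15 against -0.14 for all probes. Among 6 other ligands, receptors and sorting receptors, all measured, 1 fell in MRL/lpr against MRL/+. Ngfr, the p75 receptor, gave 0.221 to 0.277 in MRL/lpr, 0.371 to 0.613 in Fn14ko and 0.389 to 0.978 in MRL/+, and differed by -1.16 in MRL/lpr against MRL/+ (limma adjusted p = 0.0223). Ngfr was well above background in 3 of 4 MRL/lpr and 2 of 4 MRL/+ mice.

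Of 19 adaptors and scaffolds of Trk receptors 18 were measured, and 1 rose and 2 fell in MRL/lpr against MRL/+. Plcg1, the phospholipase C that Trk receptors activate, rose by 0.79 (limma adjusted p = 0.0155). Gab1, a docking protein upstream of PI3K, fell by 1.02 (limma adjusted p = 0.00729) and Crkl, an SH2 and SH3 adaptor, by 0.66 (limma adjusted p = 0.0234). Gab1 also fell against Fn14ko, by 0.97 (limma adjusted p = 0.0180), and its signal of 0.473 to 0.623 in MRL/lpr was below 0.922 to 1.28 in Fn14ko and 0.930 to 1.37 in MRL/+. Of 11 p75 adaptors 10 were measured. Traf6, a ubiquitin ligase recruited by p75, fell by 0.94 in MRL/lpr against MRL/+ (limma adjusted p = 0.0447). Lingo1, a partner of p75 in the Nogo receptor complex, rose by 1.23 in MRL/lpr against Fn14ko (limma adjusted p = 0.00264), at 0.955 to 1.35 against 0.412 to 0.495 with no overlap. Of 12 genes of proneurotrophin processing 9 were measured; Pcsk2, a convertase of secretory granules, rose by 0.72 in MRL/lpr against MRL/+ (limma adjusted p = 0.0269), and Pcsk6, another convertase, fell by 0.76 against Fn14ko (limma adjusted p = 0.0142). All 6 calls against MRL/+ were lost without its replicate 4, with limma adjusted p from 0.0515 (Gab1, -0.92) to 0.230 (Traf6, -0.73), and also without both Cy5 mice of MRL/+, from 0.0676 (Gab1, -0.89) to 0.367 (Traf6, -0.53). Of the 3 calls against Fn14ko, Gab1 (-0.87) and Pcsk6 (-0.70) were lost without replicate 1 of MRL/lpr, Pcsk6 (-0.74) without replicate 2 of Fn14ko, and Lingo1 held without any 1 mouse (1.18 to 1.33). With the processed signal, Gab1 alone held against MRL/+, and Gab1 and Lingo1 held against Fn14ko. With dim spots kept, and by the methods' t-test after adjustment, 0 of the 6 and 0 of the 3 held. Only 1 of the 6 could be measured when spots had to be well above background in all 12 mice.

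**Figure D5:**
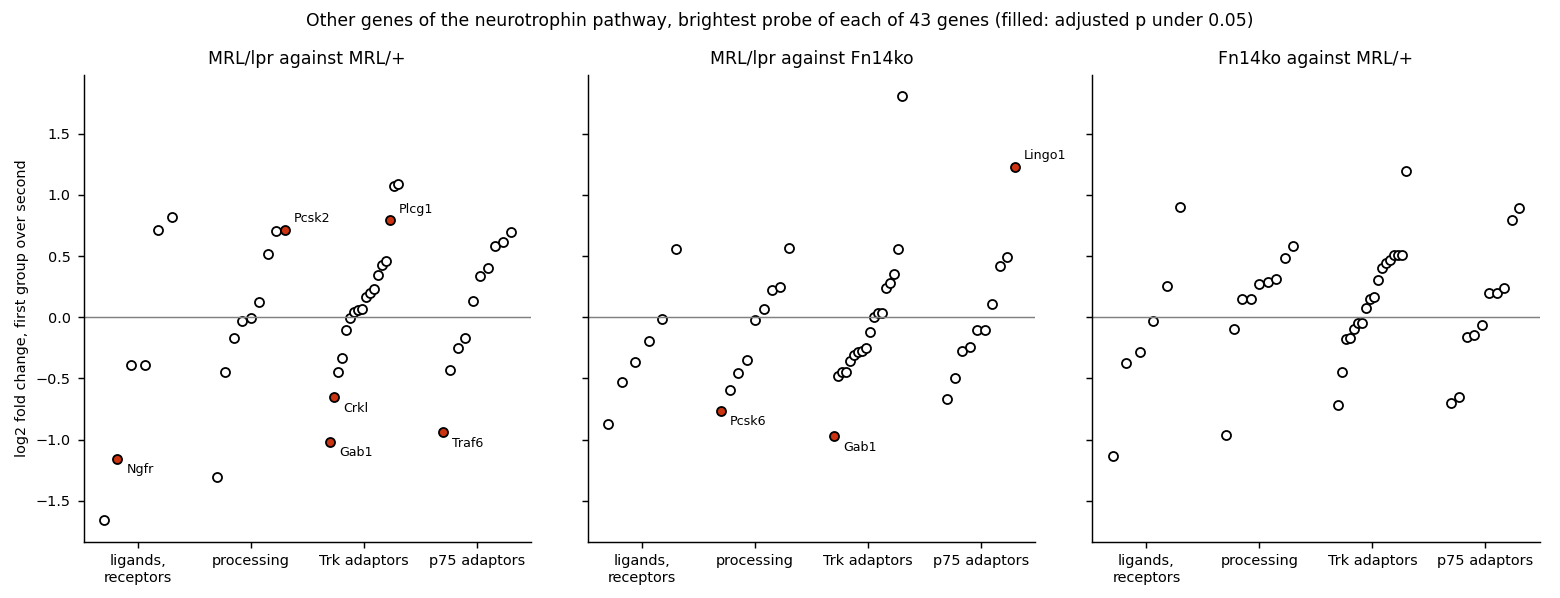
Difference of log2 signal for the 43 measured genes of neurotrophin signaling in the 3 comparisons, grouped by role; filled points have a limma adjusted p under 0.05. In MRL/lpr against MRL/+ 2 points are filled above 0 and 4 below it, and none is filled in Fn14ko against MRL/+.

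Some markers of other cells also differed between groups. Summed signal of 3 blood genes was 91.3 to 230 in MRL/lpr, 32.9 to 95.2 in Fn14ko and 24.3 to 46.8 in MRL/+. That sum followed Hba-a1, at 88.7 to 225, 32.1 to 91.4 and 22.0 to 41.3 in the same order. The other blood genes hardly entered the sum and passed in no comparison. Summed signal of 5 endothelial genes was 23.3 to 28.2, 19.7 to 27.9 and 11.5 to 17.2 in that order. Hba-a1, whose near-identical copy may share its probe, rose in MRL/lpr against MRL/+ (limma log2 difference 2.37). So did the endothelial genes Slco1a4 and Ly6c1 (1.05 and 1.29). Ly6c1 also rose in Fn14ko against MRL/+, by 1.503. Oligodendrocyte genes summed to 50.7 to 79.9 in MRL/lpr, 96.0 to 121 in Fn14ko and 89.4 to 102 in MRL/+, with Mbp lower against MRL/+ (-1.75) and Cnp lower against Fn14ko (-1.16). Of 5 microglial genes Aif1 rose (1.17), of 5 interneuron genes Pvalb rose (1.07), and of 5 excitatory neuron genes Tbr1 rose (1.68) and Slc17a7 (-1.08) and Neurod6 fell, all in MRL/lpr against MRL/+. In that comparison 15% of all probes passed, so lists with 1 of 5 genes called (microglia, interneurons, oligodendrocytes, choroid plexus) were near the background. Of 5 endothelial genes 3 were called. The shares of all probes were 4.03% in MRL/lpr against Fn14ko and 1.09% in Fn14ko against MRL/+. Choroid plexus genes varied from mouse to mouse (6.59 to 99.5, 14.0 to 183 and 16.7 to 266 in MRL/lpr, Fn14ko and MRL/+), and Clic6 was lower in MRL/lpr than in MRL/+ (-2.51). Striatal genes reached 80.8 in 1 Fn14ko mouse and 6.63 to 19.6 in the other 11 mice. No astrocyte gene passed. Of the calls against MRL/+ named in these lines, Slco1a4 and Mbp held without the Cy5 mice of MRL/+ (0.89 and -1.95). Those of Hba-a1, Ly6c1, Aif1, Pvalb, Tbr1, Slc17a7 and Clic6 were lost, and that of Neurod6 was not followed through the alternatives. The Cnp call was lost without replicate 2 or 3 of Fn14ko or replicate 1 or 3 of MRL/lpr (-1.13 to -1.03, limma adjusted p from 0.0616 to 0.120). With dim spots kept, the marker calls named here, apart from Neurod6, were all lost, Slco1a4 and Mbp included. By the methods' t-test after adjustment, Tbr1 alone of them held. The part of these markers in the neurotrophin results was not tested.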

How the data were processed

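Total RNA of minced cortex was labelled with Cy3 or Cy5 and hybridized to Agilent 4x44k mouse arrays of 60-base probes, 2 mice of 1 group per array. The deposited files are scanner output of Agilent Feature Extraction (version 12.1 per the file headers, mm9 positions): the authors' mean foreground and median local background are intensity values, with spot marks (other) and a processed signal intensity used only as an alternative. The number of arrays, with 4 mice a group, limits the precision, as does signal over background for the dimmer probes; the median SE was 0.266 on the log2 scale.

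Background was corrected by normexp (offset 50) per channel. Spots marked as uneven or as outliers (1952), or with foreground below 2 times background in 1 or more of the 12 channels (17781), were left out, as the study's methods ask; 24255 spots of 22419 probes (17302 gene names) remained. Values were divided by the channel's median spot, spots of a probe averaged, and log2 taken. The study's iterative normalization was not repeated. Tests used limma 3.58.1 in R 4.3.3 over all 12 mice, with dye as a term, array as a random block (correlation 0.325) and Benjamini-Hochberg adjustment over all probes at 0.05, 2-sided. Single values had 2-sided exact permutation tests. The scripts were tested on simulated data, where 32% of log2 changes of 1 and 69% of changes of 2 were recovered in MRL/lpr against MRL/+. A probe that did not pass may therefore still differ between groups.

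The text names every member, the genes of the other lists that passed (all of the neurotrophin list, and of each other list the 2 of lowest adjusted p), for the brightest probe of each member the 2 most alike probes, and Fas and Tnfrsf12a. Ier2, Cnih3 and the genes too dim to measure were named beyond this rule, after their values were seen. Members and lists were chosen with earlier results of these data known. Alternatives changed the background correction, signal, normalization, scaling, filters, covariates, samples, unit and test; 2 of them, without the Cy5 mice of MRL/+ and without marked local backgrounds, were chosen after seeing the data. Some genes of the lists are not reported here.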

Additional observations from a re-analysis of the deposited data

Results flagged for a closer look

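Of 39 groups of 4 mice at the member probes, 1 had a mouse far from the others: the second truncated Ntrk3 probe (A_55_P2006808) read 2.95 in MRL/lpr replicate 1, against 2.13 to 2.23 in the other 3 mice of that group. The gap to the nearest mouse was 0.876 of the group's range. Chance marks about 1 group in 20 in this way.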

How the results depend on the processing

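Ntf3 kept its direction in both MRL/lpr comparisons under every alternative run, and its call under all but dim spots kept (both comparisons) and, against Fn14ko, the methods' t-test after Benjamini-Hochberg adjustment (adjusted p = 0.113). The Ntrk2 kinase-form call held in 9 of 16 settings and 2 of 8 fits without 1 mouse, with log2 differences from 0.21 to 1.25; the Sort1 variant 2 call held in 10 of 15 settings and 7 of 8 fits without 1 mouse, with differences from -1.46 to -0.22. Signal over background limits these probes: the first truncated Ntrk3 probe was well above background in 3 of 4 MRL/+ mice, Sort1 variants 1 and 2 in 2 of 4. For full-length Ntrk2, all 8 kept spots were well above background in 3 of 4 MRL/+ mice. Apart from the leave-outs of samples and spots, the cause of each shift was not tested. Scaling to the 75th percentile moved the median of all probes from -0.15 to -0.38 in MRL/lpr against MRL/+ and from -0.14 to -0.39 in Fn14ko against MRL/+, and turned the 3 member calls in the first comparison from 1 higher and 2 lower to 0 higher and 3 lower (Ntrk2 lost, the second Ntrk3 kinase probe gained).

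Member probes past the threshold in MRL/lpr against MRL/+ (3) became 0 with dim spots kept, and 1 (Ntf3) with Cy3 mice only, without the Cy5 mice of MRL/+ and with probes of a gene merged; without single mice they ranged from 1 to 3, with 1 only without MRL/+ replicate 4. In Fn14ko against MRL/+ (0) they became 1 with background subtraction, 3 without the array block and 4 by the methods' t-test unadjusted. In MRL/lpr against Fn14ko (1) they became 3 with the processed signal, 0 with dim spots kept, 4 by the methods' t-test unadjusted (21.2% of all probes) and 0 by that test after adjustment. Pairs of probes of 1 gene without overlap in MRL/lpr against MRL/+ (5) became 3 with background subtraction, 2 with loess and quantile scaling and 2 with spots well above background in all 12 mice only, a setting that left fewer probes and gave 0 in Fn14ko against MRL/+ (2); without single mice the latter ranged from 2 to 5 (5 without Fn14ko replicate 1, 4 without MRL/+ replicate 3). Over all probes, calls (3361 for MRL/lpr and 245 for Fn14ko, both against MRL/+, with 903 between the lpr groups) became 16, 0 and 38 with dim spots kept, 7086, 4393 and 3455 with background subtraction, and 7096, 2901 and 2076 without the array block; without the Cy5 mice of MRL/+ the calls against MRL/+ became 1138 and 10.

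Replicate numbers carry the dye, and the mice were not taken as paired because not every same-numbered pair was positively correlated: same-numbered mice of different groups correlated at -0.13 to 0.72 (median 0.24) over 12 pairs, against a median of 0.12 for other numbers of the same dye and -0.23 for the other dye. Of 12 mice, 7 correlated best with their own number, which is a hint from the data and not from the design. With the replicate number as a block, 4, 0 and 1 member probes passed in the same order, and 7560, 1975 and 1832 of all probes.

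Over the members and the other named genes, 175 further values kept their direction and lost a call, and 43 gained one. None of the differences that changed sign passed the test as reported, but the reported 95% intervals of 4 excluded 0: the second Ntrk3 kinase probe in MRL/lpr against MRL/+ (-0.84 to -0.15), and the shared Ntrk2 probe (0.14 to 0.97), Sort1 variant 2 (-1.40 to -0.05) and Tnfrsf12a (-1.10 to -0.24) in Fn14ko against MRL/+. With background subtraction, in log2, these were Ntrk3 first kinase probe, MRL/lpr against MRL/+, -0.090; second truncated Ntrk3 probe and Vgf, Fn14ko against MRL/+, -0.034 and -0.033; and Sort1 both variants, MRL/lpr against Fn14ko, -0.017. With the processed signal, MRL/lpr against MRL/+ gave -0.48 for the first truncated Ntrk3 probe, -0.44 for the shared Ntrk2 probe and -0.76 for the first kinase probe, which then passed; Fn14ko against MRL/+ gave 0.27 for Sort1 variant 2, -0.074 for the shared Ntrk2 probe, -0.11 and -0.22 for the second truncated and first kinase Ntrk3 probes and -0.063 for Vgf; MRL/lpr against Fn14ko gave -0.022 for Sort1 both variants and 0.13 for Fas. With loess and quantile scaling, MRL/lpr against MRL/+ gave -0.15 for the shared Ntrk2 probe, -0.018 for Bdnf, 0.22 for Sort1 variant 1 and -0.26 for the first kinase probe, and Fn14ko against MRL/+ gave -0.19 for the second truncated probe, 0.33 for Sort1 variant 1 and -0.075 for Vgf. At the 75th percentile, the shared Ntrk2 probe gave -0.060, Bdnf -0.10 and the first kinase probe -0.20 in MRL/lpr against MRL/+, and the second truncated probe -0.23 and Vgf -0.19 in Fn14ko against MRL/+. With dim spots kept, the second kinase probe gave 0.10 and Sort1 variant 1 0.31 in MRL/lpr against MRL/+; Tnfrsf12a gave 0.056, Sort1 variant 2 0.0036, Ntf3 0.22, the second kinase probe 0.55 and Sort1 variant 1 0.56 in Fn14ko against MRL/+; and Sort1 both variants gave -0.083 in MRL/lpr against Fn14ko. With spots well above background in all mice only, the shared Ntrk2 probe gave -0.027, Bdnf -0.068 and the first kinase probe -0.16 in MRL/lpr against MRL/+, and the second truncated probe -0.21 and Vgf -0.17 in Fn14ko against MRL/+. With Cy3 mice only, MRL/lpr against MRL/+ gave -0.35 for the first truncated probe, -0.081 for Sort1 both variants, -0.10 for Bdnf and -0.34 for the first kinase probe; Fn14ko against MRL/+ gave -0.055 for Sort1 both variants, -0.34 for the second truncated probe, -0.012 for Bdnf and 0.064 for Sort1 variant 1; and MRL/lpr against Fn14ko gave -0.026 for Sort1 both variants. Without the Cy5 mice of MRL/+, MRL/lpr against MRL/+ gave -0.33, -0.046, -0.15 and -0.41 for the first truncated probe, Sort1 both variants, Bdnf and the first kinase probe, and Fn14ko against MRL/+ gave -0.090, -0.19 and 0.0017 for Sort1 both variants, the second truncated probe and Sort1 variant 1. By the methods' t-test the first kinase probe gave -0.068 in MRL/lpr against MRL/+. Without single mice, the ranges that crossed 0 were, in MRL/lpr against Fn14ko, -0.073 to 0.30 for Sort1 both variants, -0.24 to 0.036 for truncated Ntrk2, -0.27 to 0.024 for Sort1 variant 1 and -0.41 to 0.055 for Fas; in MRL/lpr against MRL/+, -0.23 to 0.27 for the first kinase probe, -0.024 to 0.24 for Bdnf and -0.044 to 0.54 for the first truncated probe; and in Fn14ko against MRL/+, -0.045 to 0.18 for Vgf, -0.099 to 0.15 for the second truncated probe and -0.34 to 0.0026 for Sort1 variant 1.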
